A study of Mus musculus with 12 samples.

Results

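The heat shock chaperones are the proteins that keep other proteins folded and that cells make in large amounts under stress. They were taken here as 10 named mouse genes: the inducible HSP70 genes Hspa1a and Hspa1b, the constitutive HSP70 gene Hspa8, the HSP110 gene Hsph1, the J proteins Dnaja1 and Dnajb1, the HSP90 genes Hsp90aa1 and Hsp90ab1, the small heat shock protein gene Hspb1, and Hspd1, the mitochondrial HSP60. Every probe that the platform annotation pairs with 1 of these symbols was used. This gave 19 probes for 9 of the 10 genes, out of 45281 probes and 19057 named genes on the array. No probe was paired with Hsp90ab1, which was not analysed here. Of the 19 probes, 17 (again 9 genes) passed a filter on dim signals, detection in at least 3 of the 12 arrays. The other 2, a second Hspb1 probe and a second Dnaja1 probe, were detected in 0 and 1 arrays.

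The arrays held RNA from regulatory T cells (Tregs), the Foxp3-expressing T cells that restrain immune responses, of chow-fed C57BL/6 mice. There were 4 groups of 3 arrays: Tregs of perigonadal fat from T-bet knockout mice, Tregs of perigonadal fat from control mice, and Tregs of spleen from the same 2 genotypes. T-bet knockout mice carried a floxed Tbx21 gene together with Foxp3-YFP-Cre, and control mice carried Foxp3-YFP-Cre without it, so that all 4 groups share the Cre. That Cre is driven from the Foxp3 locus, and the floxed gene is cut in Foxp3-expressing cells only. The labels give neither age nor sex, nor how many animals stand behind an array. The p-values therefore measure the spread between these arrays, which may be technical.

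A cell that is heated or otherwise stressed frees the transcription factor HSF1, which binds arrays of the unit NGAAN in the promoters of heat shock genes and switches them on. HSP70 proteins hold unfolded stretches of other proteins with the help of J proteins, which trigger ATP hydrolysis, and HSP110 proteins, which release the spent nucleotide. HSP90 completes the folding of kinases and receptors, small heat shock proteins hold unfolded proteins until HSP70 takes them over, and HSP60 folds proteins inside mitochondria with its lid HSP10. In freshly isolated immune cells Hspa1a and Hspa1b are also known as genes that respond to tissue dissociation and sorting. Hsf1 itself had no probe in the annotation used here.

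The stretch of 250 bases before the transcription start was read for 7 of the 10 genes from RefSeq sequences of build GRCm38.p6, which held 12 such windows for them. No window was held for Hspa8, Hsp90aa1 or Hsp90ab1. Shown are the windows of both inducible HSP70 genes, because their highest-mean probes followed each other over the arrays, and those of Hsph1 and Hspb1 for comparison. Each is printed 5′ to 3′ on the strand of its gene, and the capitals mark a pair of facing heat shock units, GAANNTTC or TTCNNGAA, searched on both strands, each the reverse complement of itself.
Hspa1a, chr17:34972157-34972406, minus strand: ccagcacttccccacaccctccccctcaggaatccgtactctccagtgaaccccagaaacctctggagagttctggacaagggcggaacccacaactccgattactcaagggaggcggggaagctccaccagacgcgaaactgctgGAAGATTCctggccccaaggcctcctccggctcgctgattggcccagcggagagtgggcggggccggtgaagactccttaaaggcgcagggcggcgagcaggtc
Hspa1b, chr17:34959239-34959488, minus strand: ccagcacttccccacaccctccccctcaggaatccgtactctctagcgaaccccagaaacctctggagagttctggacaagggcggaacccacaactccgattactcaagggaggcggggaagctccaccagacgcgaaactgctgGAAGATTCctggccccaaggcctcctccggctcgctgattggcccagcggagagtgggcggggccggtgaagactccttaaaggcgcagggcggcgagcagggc
Hsph1, chr5:149636337-149636586, minus strand, the first of 2 RefSeq starts: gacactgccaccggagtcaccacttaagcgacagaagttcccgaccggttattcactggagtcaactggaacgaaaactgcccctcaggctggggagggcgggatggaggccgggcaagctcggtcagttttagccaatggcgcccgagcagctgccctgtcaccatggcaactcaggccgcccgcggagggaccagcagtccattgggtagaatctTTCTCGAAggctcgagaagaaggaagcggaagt
Hspb1, chr5:135887669-135887918, plus strand: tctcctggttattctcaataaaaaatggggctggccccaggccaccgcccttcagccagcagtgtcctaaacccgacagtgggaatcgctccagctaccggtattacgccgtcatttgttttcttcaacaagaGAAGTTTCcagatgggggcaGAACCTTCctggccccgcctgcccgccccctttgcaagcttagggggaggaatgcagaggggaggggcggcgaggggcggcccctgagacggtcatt
Hspd1, chr1:55088059-55088076, minus strand, an 18-base stretch before the second RefSeq start: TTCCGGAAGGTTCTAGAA

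The Hspa1a and Hspa1b windows were identical at 247 of 250 positions (98.8%). They differed by C44T, T47C and T249G, with the Hspa1a base first and positions counted from 1 at the 5′ end of the window. No protein-coding gene lies between Hspa1a and Hspa1b in the RefSeq annotation. Both carried GAAGATTC at positions −104 to −97 from the start. A pair of facing units was found in 7 of the 12 windows, belonging to 6 of the 7 genes, Dnajb1 being the exception, and in 12.8% of all 32851 RefSeq promoter windows of this length. The longer run GAANNTTCNNGAA was present in the second window of Hspd1, in the 18 bases printed above, and in 0.466% of all windows. That stretch overlaps itself on both strands, so it holds the run in each direction. These are matches of letters and not measured binding.

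Each array detected between 27.0 and 40.9% of its probes, and 20367 were tested. Values are given on the normalised log2 intensity scale, where 1 unit is a 2-fold step and detected probes began at 4.83 to 5.53, depending on the array. In each list of 3 values the arrays stand in the order of their slide, 1 to 3, since every slide held 1 array of each group. The array letter followed the group on every slide, so place on the slide and group cannot be told apart. Tbx21, the targeted gene, read 6.62, 7.57 and 4.94 in fat Tregs of T-bet knockout mice, against 5.50, 7.27 and 5.17 in fat controls, and 4.69, 5.74 and 4.72 in spleen Tregs of T-bet knockout mice, against 4.54, 4.88 and 5.19 in spleen controls. The difference between genotypes was +0.40 in fat and +0.18 in spleen (SE 0.67, limma adjusted p 1 in both). Where its 1 probe lies relative to the floxed part was not analysed here, so it checks no label. T cell markers (8 of 9 measured) averaged 8.77 to 9.38 in the fat arrays and 9.46 to 9.70 in the spleen arrays. Every fat array was thus below every spleen array, and fat control array 3 was the lowest. Single markers did not all separate, Cd2 and Cd28 being among those that overlapped. Foxp3 was detected on all 12 arrays.

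The chaperones differed in how steady they were between arrays of the same group. Hspa8, Hsp90aa1, Dnajb1 and Hsph1 varied little by their highest-mean probes, whereas Hspa1a, Hspa1b and Hspb1 varied widely. The steady probes were also the brighter ones, with means of 9.56 to 12.21 against 5.56 to 8.13, and spread at equal signal was not tested. Other probes of the same genes differed less, with a within-group SD of 0.50 for the third Hspa8 probe and 0.67 for the third Hspa1a probe. The 5 Hspa1a and Hspa1b probes had a median within-group SD of 1.31 log2 units, and the other 12 chaperone probes 0.38, beside 0.59 over all 20367 probes. Over all 12 arrays, 7 of the 17 probes spanned more than 3 log2 units, as did 21.3% of all probes. At the other end 4 of the 17 spanned less than 1 unit, as did 7.95% of all probes. Of the 17 probes, 11 were detected on all 12 arrays.

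**Figure D1:**
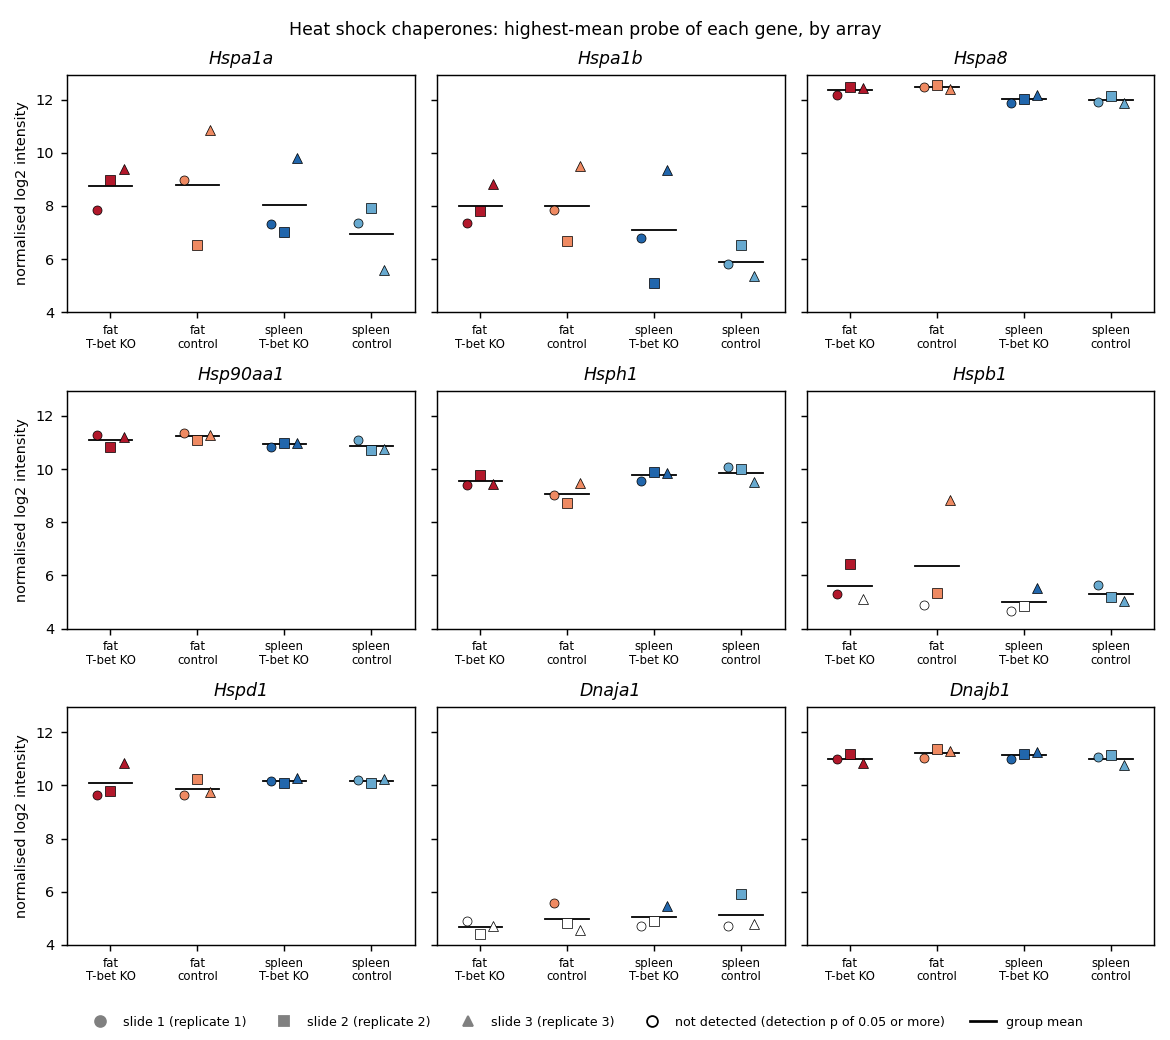
Normalised log2 intensity (vertical axis) of the highest-mean probe of each of the 9 chaperone genes in the 4 groups (horizontal axis), with 1 point per array, its shape giving the slide, open points for arrays without detection and a line at the group mean. Hspa8, Hsp90aa1 and Dnajb1 lie close to their group means, while Hspa1a spans 5.58 to 10.84 and Hspb1 has 1 high array, fat control array 3 at 8.84.

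**Figure D2:**
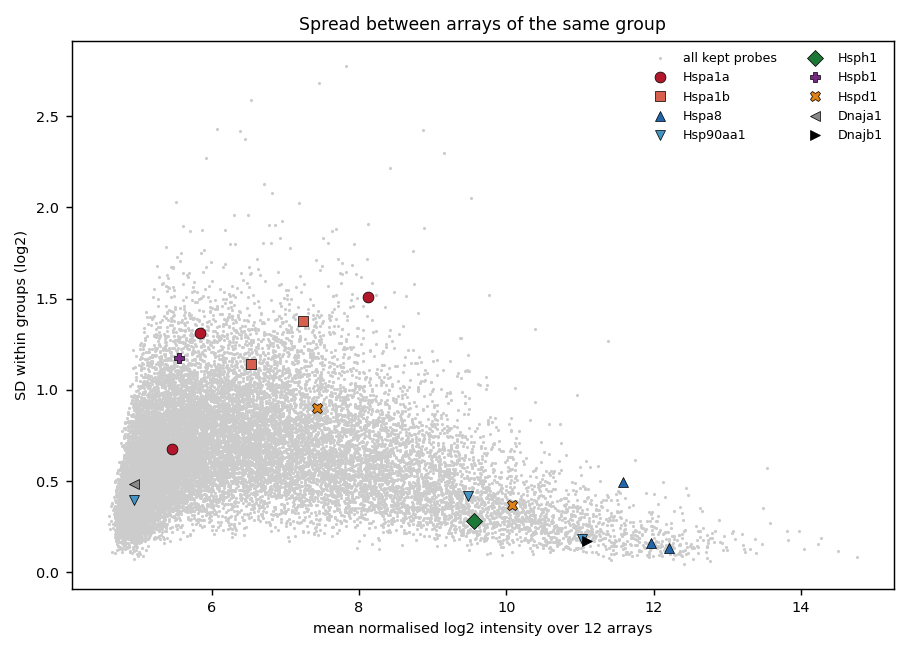
The SD within groups (vertical axis, log2) of every tested probe (grey) against its mean normalised log2 intensity over the 12 arrays (horizontal axis), with the 17 chaperone probes as coloured symbols. The highest-mean probe of Hspa1a has an SD of 1.51 and that of Hspa8 an SD of 0.13.

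The first question of the design is how Tregs of fat differ from Tregs of spleen. In T-bet knockout mice 1 of the 17 chaperone probes passed limma at an adjusted p below 0.05, 1 of the 3 for Hspa1a, which was lower in fat, where 4.53% of all probes passed. No fat array of these mice detected that probe, and it met the filter through their spleen arrays, where it is high. With no filter it did not pass (limma adjusted p 0.061). In control mice 0 of the 17 passed, where 4.66% of all probes did. At an unadjusted p below 0.05 there were 2 in control mice, Hsph1 and an Hspa1b probe, where 18.4% of all probes passed. Averaged over both genotypes 0 passed, where 12.6% of all probes did, and 5 passed unadjusted (26.5% of all probes). The median log2 change of the 17 probes was +0.16 in T-bet knockout mice, +0.37 in control mice and +0.27 over both, beside −0.07, −0.05 and −0.05 over all tested probes. Both genotypes' comparisons with spleen are separate, and the mean of both uses the same arrays again.

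**Figure D3:**
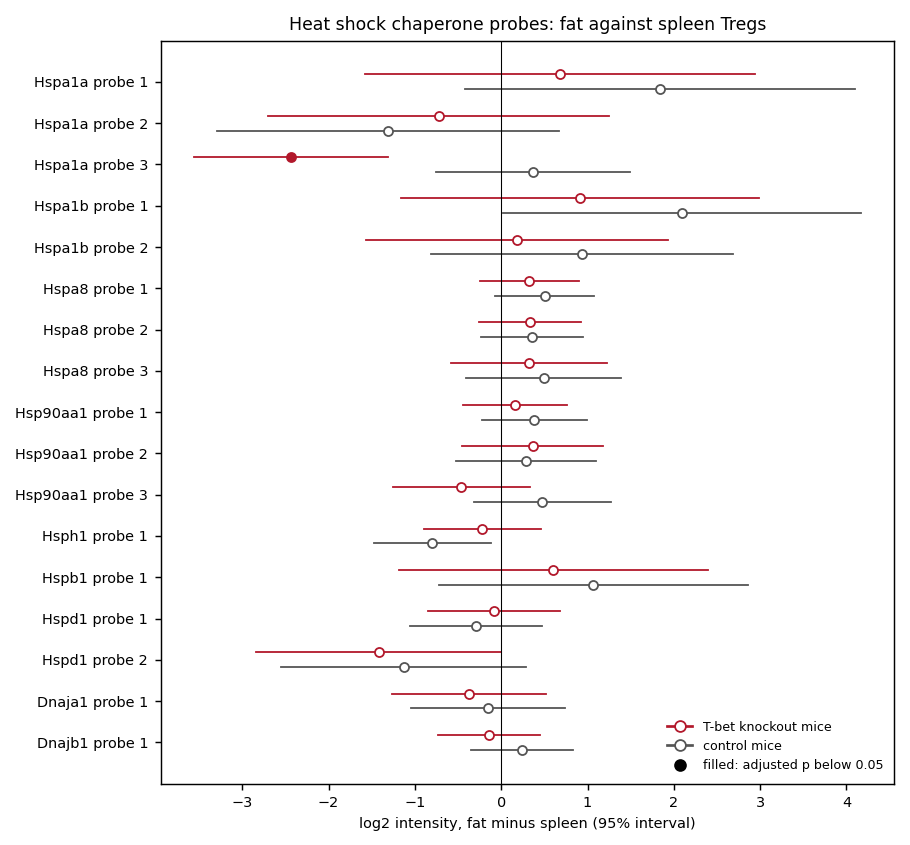
Change in log2 intensity, fat minus spleen (horizontal axis), for each of the 17 chaperone probes (vertical axis), with T-bet knockout mice above control mice, bars for the 95% interval and a filled point for an adjusted p below 0.05. Probes of a gene are numbered from the highest mean down. The filled point is the third Hspa1a probe at −2.43, while the first Hspa1a probe is at +0.68 in the same mice.

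Hspa1a encodes the main stress-induced HSP70. Its highest-mean probe (ILMN_2829594) was detected on all arrays and read 7.83, 8.97 and 9.39 in fat Tregs of T-bet knockout mice and 8.97, 6.55 and 10.84 in fat controls. In spleen it read 7.33, 7.03 and 9.80 in Tregs of T-bet knockout mice and 7.35, 7.92 and 5.58 in controls. As deposited, before any correction, the highest and lowest intensities were 1795 (fat control array 3) and 113.2 (spleen control array 3), both on slide 3. The groups overlapped throughout, and each but the spleen controls had its highest array on slide 3. The span over the 12 arrays was 5.26 log2 units, a 38.4-fold range, and the within-group SD of 1.51 stood at percentile 99.3 of all tested probes. Fat minus spleen was +0.68 in T-bet knockout mice (SE 1.04, n = 3 per group, limma adjusted p 0.803, 95% interval −1.58 to 2.94) and +1.84 in control mice (SE 1.04, adjusted p 0.382, interval −0.42 to 4.10). By slide it was +0.51, +1.94 and −0.41 in T-bet knockout mice and +1.62, −1.37 and +5.26 in control mice, so its sign was not shared between slides.

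Hspa1b encodes a nearly identical HSP70 protein. Its highest-mean probe (ILMN_2498263) read 7.35, 7.79 and 8.83 in fat Tregs of T-bet knockout mice and 7.83, 6.67 and 9.50 in fat controls. In spleen it read 6.77, 5.09 and 9.36 in Tregs of T-bet knockout mice and 5.82, 6.53 and 5.36 in controls. In T-bet knockout mice fat minus spleen was +0.92 (limma adjusted p 0.694, interval −1.16 to 2.99), with 1 spleen array at 9.36 above all 3 fat arrays. All 3 fat controls were above all 3 spleen controls, if narrowly (6.67 against 6.53 at the closest). Their difference of +2.09 (SE 0.95, n = 3 per group) had an unadjusted limma p of 0.0481 and an adjusted p of 0.266, with an interval of 0.02 to 4.17. By slide it was +2.01, +0.13 and +4.14.

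These 2 probes, 1 of each gene, followed each other from array to array. Over the 12 arrays their Pearson correlation was 0.914 (permutation p 3e-05, 0.0003 after adjustment over the 10 pairs of Hspa1a and Hspa1b probes) and their Spearman correlation 0.888 (permutation p 0.0003, adjusted 0.003), both two-sided with 100000 resamples. Without the 2 arrays farthest from the median of Hspa1a, r was 0.879. It was 0.958 among the 6 fat arrays, 0.893 among the 6 spleen arrays and 0.884 after taking out the group means. Over the 12 arrays the other 9 pairs, including pairs of probes of the same gene, had r between −0.134 and 0.252 (permutation adjusted p 0.76 to 0.81). Within tissues they varied more, from −0.444 to 0.884 among the 6 fat arrays and from −0.096 to 0.772 among the 6 spleen arrays. The 0.884 was that of the third Hspa1a and first Hspa1b probes. After taking out the group means the 9 pairs had r of 0.09 to 0.563. The 2 genes are near-identical copies and the probe sequences were not analysed here, so the signal of 1 gene cannot be told apart from that of the other.

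The remaining Hspa1a and Hspa1b probes gave other orders. The second Hspa1a probe (ILMN_1245039) was detected in 8 arrays and was highest in a spleen control array, at 9.11, where the first probe read 7.92. The third Hspa1a probe (ILMN_1225328) was detected in 5 arrays: all 3 of spleen Tregs of T-bet knockout mice, 1 fat control and 1 spleen control. It read 4.68, 4.68 and 5.07 in fat Tregs of T-bet knockout mice, without detection, against 5.87, 7.73 and 8.13 in spleen Tregs of T-bet knockout mice. It was thus at least 4.32-fold lower in fat (fitted log2 change −2.43, SE 0.51, n = 3 per group, limma adjusted p 0.0187), a bound taken against the lowest detected signals of the fat arrays and computed for this background correction only. The fitted change was −1.63 with a background offset of 50, and −1.18 without background correction and with the authors' normalized values. In control mice it read 4.88, 4.72 and 5.65 in fat, against 4.51, 5.01 and 4.63 in spleen (+0.37, adjusted p 0.756). This probe met the filter through the spleen arrays of T-bet knockout mice. Its call was not shared by the first (+0.68) or the second (−0.73) Hspa1a probe, and it was lost without either of fat knockout arrays 1 and 2 (adjusted p 0.0597 and 0.0574) or either of spleen knockout arrays 2 and 3 (0.0868 and 0.0704). The second Hspa1b probe (ILMN_2530672) read 4.68 to 8.53 and differed between fat and spleen by +0.18 in T-bet knockout mice and +0.94 in controls (adjusted p 0.941 and 0.588).

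**Figure D4:**
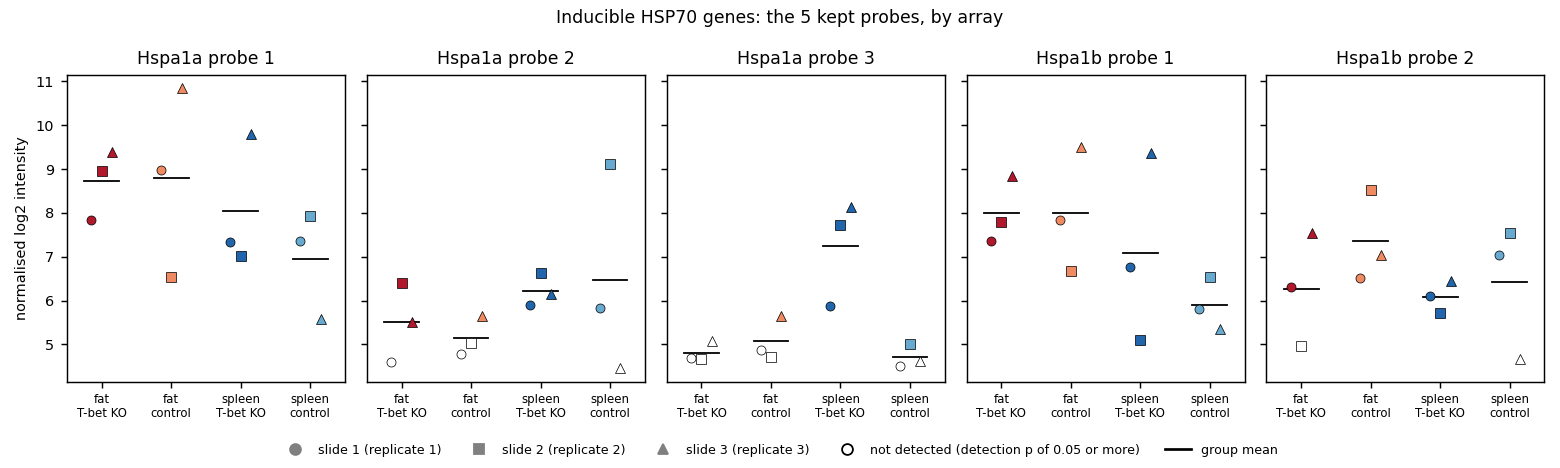
Normalised log2 intensity (vertical axis) of the 5 tested Hspa1a and Hspa1b probes in the 4 groups (horizontal axis), 1 point per array, shape for the slide, open where not detected, line at the group mean. The first probes of both genes follow a similar order of arrays, and the third Hspa1a probe is high in the 3 spleen arrays of T-bet knockout mice, at 5.87 to 8.13, with every other array at 4.51 to 5.65.

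Hspa8 encodes the constitutive HSP70 of resting cells, and its first probe had the smallest within-group SD of the 17, 0.13. Its highest-mean probe (ILMN_1249586) read 12.16, 12.46 and 12.44 in fat Tregs of T-bet knockout mice and 12.49, 12.53 and 12.41 in fat controls. In spleen it read 11.89, 12.03 and 12.17 in Tregs of T-bet knockout mice and 11.92, 12.12 and 11.87 in controls. The lowest fat array, at 12.16, lay just below the highest spleen array, at 12.17, and fat exceeded spleen on each of the 3 slides in both genotypes, by +0.27 to +0.56. The mean difference over both genotypes was +0.42 log2 units, 1.33-fold (SE 0.19, n = 6 per tissue), with an unadjusted limma p of 0.0451 and an adjusted p of 0.176. The other Hspa8 probes gave +0.34 and +0.41 (adjusted p 0.288 and 0.425). The +0.41 was less steady, at +0.16 without spleen control array 3 (adjusted p 0.728) and +0.57 without spleen control array 2. That probe was lower in fat on slide 2 in control mice, by −0.20. The first probe's adjusted p ranged from 0.0184 to 0.284 over 23 other processings or subsets of arrays, and 4 of these called it.

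Hsph1 encodes the HSP110 exchange factor, and its 3 fat controls lay below its 3 spleen controls. It read 9.01, 8.72 and 9.47 in fat controls and 10.09, 10.004 and 9.51 in spleen controls. The difference was −0.80 (SE 0.31, n = 3 per group, unadjusted limma p 0.0252, adjusted p 0.189, interval −1.48 to −0.12). Slides 1 and 2 gave −1.07 and −1.28, and slide 3 gave −0.03. In T-bet knockout mice it read 9.42, 9.78 and 9.42 in fat and 9.55, 9.88 and 9.85 in spleen, a difference of −0.22 (adjusted p 0.787).

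Counted over probes, 3 of 17 had fat and spleen arrays of T-bet knockout mice that did not overlap (the third Hspa1a and second Hspd1 probes lower in fat, the second Hspa8 probe higher), where 23.8% of all probes did so. In control mice 3 of 17 did not overlap (Hsph1 lower in fat, the first probes of Hspa1b and Hspa8 higher), where 23.9% of all probes did so. With both genotypes together 0 of 17 probes had 6 fat arrays clear of the 6 spleen arrays, where 8.22% of all probes did.

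Dnajb1, the J protein that works with inducible HSP70, read 11.01, 11.17 and 10.84 in fat Tregs of T-bet knockout mice, 11.03, 11.38 and 11.28 in fat controls, 11.01, 11.18 and 11.26 in spleen Tregs of T-bet knockout mice and 11.06, 11.14 and 10.76 in spleen controls. The groups overlapped, and all 12 arrays lay within 0.62 log2 units. Its differences between fat and spleen were −0.14 in T-bet knockout mice and +0.24 in controls (adjusted p 0.85 and 0.693), with 95% intervals that allow changes of −0.74 to 0.45 and −0.35 to 0.84. Dnajb1 thus did not share the 38.4-fold range of the first Hspa1a probe. Dnaja1, a J protein partner of Hspa8, had 1 tested probe that was detected in only 3 arrays and read 4.40 to 5.93, so little can be said of it.

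Hsp90aa1 encodes the stress-inducible cytosolic HSP90. Its highest-mean probe (ILMN_2668319) read 11.28, 10.82 and 11.19 in fat Tregs of T-bet knockout mice, 11.37, 11.08 and 11.26 in fat controls, 10.82, 10.99 and 11.00 in spleen Tregs of T-bet knockout mice and 11.09, 10.72 and 10.75 in spleen controls. The tissues overlapped by 1 or more arrays in both genotypes. Fat minus spleen was +0.16 in T-bet knockout mice and +0.38 in controls (adjusted p 0.829 and 0.509, intervals −0.44 to 0.76 and −0.22 to 0.99). A second probe gave +0.37 and +0.29, and the third was detected in 4 arrays only.

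Hspb1, the small heat shock protein HSP25 of the mouse, was detected in 8 arrays. It read 5.30, 6.42 and 5.11 in fat Tregs of T-bet knockout mice, 4.87, 5.34 and 8.84 in fat controls, 4.65, 4.84 and 5.54 in spleen Tregs of T-bet knockout mice and 5.63, 5.19 and 5.04 in spleen controls. Fat control array 3 stood alone. With it, fat minus spleen in control mice was +1.06 (adjusted p 0.542), and without it the difference was −0.18 (adjusted p 0.888). That same array was the highest of the 12 for the first probes of Hspa1a and Hspa1b, and without it their differences between fat and spleen controls were +0.81 and +1.35 (adjusted p 0.741 and 0.537).

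The mean of the macrophage and monocyte markers was higher in every fat array than in every spleen array. Single markers did not all separate. Adgre1 read 5.66 in fat control array 2 and 7.96 in spleen control array 2, and Csf1r and C1qa overlapped too. The means for macrophages and monocytes, B cells, CD8 T and NK cells, and dendritic cells were each highest in fat control array 3. The mean of the macrophage and monocyte markers (10 of 12 measured) was 10.13 there, against 7.40 to 8.80 in the other 5 fat arrays, 5.01 to 5.60 in spleen Tregs of T-bet knockout mice and 4.74 to 6.45 in spleen controls. B cell markers (2 of 6 measured) averaged 8.06 there and 4.68 to 6.34 elsewhere, with Ms4a1 and Pax5 undetected on every array. Markers of CD8 T and NK cells (5 of 7 measured) averaged 8.29, against 6.86 to 7.40 elsewhere, and dendritic cell markers (4 of 5 measured) 7.69, against 5.94 to 6.62 elsewhere. These means rest on part of each list. Cd8a and Prf1 were not highest there, Prf1 reading 11.97 against 12.01 to 12.65 in the other fat arrays. Itgax (8.04) and Flt3 (7.07) were highest there, while Siglech (10.33) and Zbtb46 (5.32) were not, reaching 11.13 in spleen control array 3 and 6.49 in spleen knockout array 2. Pf4, a chemokine gene listed here with platelets, read 11.29 in fat control array 3, 7.84 to 8.91 in the other fat arrays and 4.34 to 5.20 in the spleen arrays. Hba-a1, the other measured gene of that list of erythroid cells and platelets, went the other way. It had its lowest value in fat control array 3, at 4.63, against 4.77 to 8.15 in the other fat arrays and 6.88 to 9.76 in the spleen arrays. The part of these cells in the chaperone values was not tested. In bulk RNA, more cells of a type and more RNA per cell cannot be told apart. The adipocyte marker Fabp4, the 1 of 7 measured, read 7.01 to 10.95 in fat Tregs of T-bet knockout mice and 7.12 to 11.37 in fat controls, against 4.49 to 4.74 and 4.37 to 4.85 in the spleen groups of the same genotypes, and Plin1 was undetected on every array. Fat control array 3, the highest for Hspa1a, had 7.12 of Fabp4.

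Hspd1 encodes HSP60, the chaperonin of the mitochondrial matrix. Its highest-mean probe (ILMN_2713841) read 9.63, 9.81 and 10.85 in fat Tregs of T-bet knockout mice, 9.65, 10.24 and 9.75 in fat controls, 10.18, 10.09 and 10.26 in spleen Tregs of T-bet knockout mice and 10.20, 10.10 and 10.23 in spleen controls. The 6 spleen arrays lay within 10.09 to 10.26, inside the span of the fat arrays. Fat minus spleen was −0.08 in T-bet knockout mice and −0.30 in controls (adjusted p 0.937 and 0.707). The second probe (ILMN_2639036) read 6.14, 7.61 and 6.06 in fat Tregs of T-bet knockout mice against 8.56, 7.79 and 7.71 in spleen, and 7.70, 5.69 and 7.58 in fat controls against 9.09, 8.18 and 7.09 in spleen controls. Its difference over both genotypes was −1.27 (SE 0.46, n = 6 per tissue, adjusted p 0.0954), so the 2 Hspd1 probes agreed in sign but not in size.

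The second question is what loss of T-bet did within a tissue. In fat Tregs 0 of the 17 chaperone probes passed limma, where 0.00982% of all probes passed, and 0 had an unadjusted p below 0.05 (6.35% of all probes). The smallest adjusted p was 0.928, for Hsph1, which was +0.47 in T-bet knockout mice (interval −0.21 to 1.15). The highest-mean probes of Hspa1a and Hspa1b differed by −0.06 and −0.01, with intervals of −2.31 to 2.20 and −2.08 to 2.07 that leave room for a 4-fold change either way. For Hspa8 the difference was −0.12 (interval −0.70 to 0.45) and for Hsp90aa1 −0.14 (interval −0.75 to 0.46). Without fat control array 3 the Hspa1a value became +0.97, the Hspa1b value +0.74 and the Hspb1 value, −0.74 with all arrays, became +0.51 (adjusted p 0.937, 0.964 and 0.92). The median change of the 17 probes was −0.14, beside 0.00 over all probes. No probe had groups that did not overlap, where 8.49% of all probes did.

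In spleen Tregs 0 of the 17 passed, where 0% of all probes passed, and 2 had an unadjusted p below 0.05 (2.34% of all probes). These were the third Hspa1a probe and the third Hsp90aa1 probe (adjusted p 1 for each), which were also the 2 of 17 whose groups did not overlap (8.77% of all probes). The third Hspa1a probe averaged 7.25 in T-bet knockout mice and 4.72 in controls, where 1 of 3 arrays detected it, and it met the filter through the T-bet knockout arrays where it is high. The third Hsp90aa1 probe was detected in 2 T-bet knockout arrays and 0 control arrays and did not pass the test. It read 5.52, 5.11 and 5.46 in T-bet knockout mice, the first of these undetected, against 4.40, 4.53 and 4.62 in controls. No bound on its fold is given, since an undetected array is part of the higher group. Exact differences against such dim signals are not given. The first probes of Hspa1a and Hspa1b were +1.10 and +1.17 in T-bet knockout mice (adjusted p 1), resting on slide 3, where they differed by +4.22 and +4.004, beside −0.02 and +0.95 on slide 1 and −0.89 and −1.44 on slide 2. Tested as a difference between tissues, 0 of 17 passed (0% of all probes), and 1 had an unadjusted p below 0.05 (3.82% of all probes), again the third Hspa1a probe with the same limit. Averaged over tissues 0 of 17 passed (0% of all probes) and 1 passed unadjusted, the same probe (4.02% of all probes).

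Since every slide carried 1 array of each group, the slides could be compared apart from the groups. The slides match the replicate numbers, so slide and replicate cannot be told apart. In a limma F test over the 3 slides 0 of the 17 probes passed, where 0% of all probes passed, and 0 had an unadjusted p below 0.05 (9.52% of all probes). The smallest p, 0.0779 (adjusted 0.551), belonged to the first Hspa1b probe, whose arrays deviated from their group means by −0.30, −0.72 and +1.02 on slides 1, 2 and 3. The first Hspa1a probe deviated by −0.26, −0.51 and +0.77 (p 0.354). Slide 3 held the highest array of 3 of the 4 groups for both probes, and the lowest of the spleen controls.

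Other stress genes were set beside the chaperones, each by its highest-mean probe, with 5.41% of all 10025 genes called between fat and spleen in T-bet knockout mice, 5.66% in control mice and 14.9% over both genotypes. Of 22 immediate early genes, the transcription factors and signalling genes that respond first to stimulation, 3 were higher in fat in T-bet knockout mice, 3 in control mice and 8 over both, and 0 were lower. Ier3, an early survival gene, was +5.34 in T-bet knockout mice and +5.59 in control mice, Atf3, a stress transcription factor, +3.54 and +4.03, and Gadd45b, a stress signalling gene, +3.42 and +3.44. A second Gadd45b probe was +3.47 and +3.00 (adjusted p 0.0343 and 0.0625). The mean of the macrophage and monocyte markers given above was also higher in every fat array than in every spleen array. So was Fabp4, and both thus differ in the same direction as this list and every list below that is higher in fat. Their part in these lists was not tested. Per array the mean of the 22 genes was 8.92 to 9.39 in fat Tregs of T-bet knockout mice and 9.26 to 9.77 in fat controls. In spleen it was 7.47, 7.05 and 9.12 in Tregs of T-bet knockout mice and 7.27, 6.99 and 9.27 in controls. Both spleen arrays of slide 3 were thus high for these genes, while the first Hspa1a probe read 9.80 in the T-bet knockout array and 5.58 in the control array of that slide. A part of the immediate early response in the Hspa1a values was not tested.

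Among other chaperone lists the HSP70 relatives (5 of 8 measured) had 1 gene higher in fat in each genotype, 2 over both, and 0 lower. That gene was Hspa2, an HSP70 best known from male germ cells, which read 10.99, 10.86 and 10.52 in fat Tregs of T-bet knockout mice and 10.73, 10.96 and 10.20 in fat controls. In spleen it read 6.46, 5.14 and 7.97 in Tregs of T-bet knockout mice and 6.18, 7.03 and 8.29 in controls, all below every fat array. It was +4.26 in T-bet knockout mice and +3.47 in controls (limma adjusted p 0.00342 and 0.0103), and a second Hspa2 probe was at least 5.92-fold higher in fat in T-bet knockout mice, whose spleen arrays did not detect it, and +2.67 in controls (adjusted p 0.00645 and 0.0153). Hspa4, a cytosolic HSP110 relative, was +0.69 over both genotypes (adjusted p 0.0476), with a second probe at +0.72 that was not called (adjusted p 0.0933).

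The mitochondrial chaperones beside Hspd1 (8 of 10 measured) had 1 lower in fat in T-bet knockout mice, 2 in controls and 3 over both, 0 higher, and medians of −0.96, −1.17 and −1.14. Hspe1, the HSP10 lid of HSP60, read 10.15, 9.82 and 9.75 in fat Tregs of T-bet knockout mice and 9.95, 9.83 and 9.96 in fat controls, against 11.06, 11.24 and 11.18 and then 11.40, 11.33 and 10.97 in spleen Tregs of the same genotypes. Every fat array lay below every spleen array, by −1.25 in T-bet knockout mice and −1.32 in controls (adjusted p 0.0223 and 0.0165). Hspe1 and Hspd1 are neighbours, with no protein-coding gene between them in the RefSeq annotation. Trap1, the mitochondrial HSP90, was −1.53 over both genotypes (adjusted p 0.0117), and Hscb, a J protein of iron-sulfur cluster assembly, −0.58 in T-bet knockout mice and −2.22 in control mice (adjusted p 0.617 and 0.0232). A second Hscb probe was −0.93 and −1.02 and was not called (adjusted p 0.331 and 0.264).

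Of the regulators and co-factors of the heat shock response (10 of 12 measured) 0 were called in any comparison of tissues, with 1, 1 and 2 below an unadjusted p of 0.05 in T-bet knockout mice, controls and both. Bag3, a co-chaperone induced by HSF1, was +0.87 in T-bet knockout mice and +1.96 in control mice (adjusted p 0.619 and 0.177). Of 16 HSP90 co-chaperones 1 was lower in each comparison of tissues, Ppid, a cyclophilin, at −1.55 in T-bet knockout mice and −1.50 in controls (adjusted p 0.0197 and 0.023). Of 16 measured J proteins 1 was higher in controls, Dnajb6 (+1.25 in T-bet knockout mice and +1.52 in controls, adjusted p 0.0547 and 0.0215). Of the other 3 Dnajb6 probes, all above 0 in both genotypes, 1 was called in each genotype. There were 1 higher (again Dnajb6, +1.38) and 2 lower over both genotypes, the lower ones being Dnajc19 (−1.19) and Dnajc7 (−0.89). The other 4 tested Dnajc19 probes were −0.94 to −0.24 and not called (adjusted p 0.0892 to 0.745). The TRiC chaperonin and prefoldin list (12 of 13 measured) had 1 lower gene over both genotypes, Cct8 (−0.70, adjusted p 0.0471), and small heat shock proteins (2 of 8 measured) and proteasome and ubiquitin genes (8 of 12 measured) had 0.

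Of the ER chaperones and unfolded protein response genes (18 of 20 measured) 1 was higher in fat in each genotype, Ern1, the ER stress sensor IRE1 alpha, at +2.64 in T-bet knockout mice and +3.55 in controls (adjusted p 0.006 and 0.000811). Both other Ern1 probes were undetected in every spleen array. Their folds were taken from the mean of all fat arrays, detected or not, against the lowest detected signals of the spleen arrays. These were 3.07-fold and 1.76-fold higher in fat in T-bet knockout mice, neither called (adjusted p 0.0706 and 0.128). In controls they were 7.18-fold and 2.02-fold, where the first was called (adjusted p 0.00958 and 0.172). Over both genotypes Xbp1, the target of IRE1, was also higher at +0.80 (adjusted p 0.0228). The NRF2 and oxidative stress list (11 of 13 measured) had 4 higher and 1 lower in T-bet knockout mice, 4 higher and 0 lower in controls, and 5 higher and 0 lower over both. Mt1 and Mt2, metallothioneins that bind heavy metals, were +4.84 and +2.55 in T-bet knockout mice and +3.80 and +3.46 in controls, and Srxn1, which repairs oxidised peroxiredoxins, was +4.56 and +3.20 in the same order of genotypes. A second Srxn1 probe, detected in 4 fat arrays and 0 spleen arrays, was not called (adjusted p 0.205 and 0.233). No bound on its fold is given, since undetected fat arrays are part of its higher side. The gene that was lower in T-bet knockout mice was Osgin1 (−2.15, adjusted p 0.043, beside −0.12 in controls, adjusted p 0.932), named here after its value was seen. Between T-bet knockout and control mice 0 genes of any of these lists were called in fat or in spleen, where 0.00998% and 0% of all genes were. In these lists the members were measured if they passed the filter, which detection in fat alone or spleen alone can meet.

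Taken as 1 value, the mean of the highest-mean probes of the 9 genes read 8.76, 9.07 and 9.20 in fat Tregs of T-bet knockout mice, 8.98, 8.59 and 9.77 in fat controls, 8.55, 8.45 and 9.41 in spleen Tregs of T-bet knockout mice and 8.65, 8.85 and 8.21 in spleen controls. The order of the group means was fat control (9.11 ± 0.60, SD, n = 3), fat T-bet knockout (9.01 ± 0.22), spleen T-bet knockout (8.80 ± 0.53) and spleen control (8.57 ± 0.33), and neighbours in this order lay within 1 SD of each other. The 5 probes outside the list whose arrays followed this mean most closely were those of Tesmin (Pearson r 0.928 over the 12 arrays), Cyp51 (0.870), Minar2 (0.855), Cndp2 (0.848) and Ehmt2 (0.830). These are the top of the tested probes with a symbol outside the members and are given as a description. The mean of the 9 genes was not scaled, so the probes that vary most weigh most in it. Those of Hspa1a, Hspa1b and Hspb1 spanned 5.26, 4.41 and 4.19 log2 units, and those of Hspa8, Hsp90aa1 and Dnajb1 0.66, 0.65 and 0.62. Cyp51, an enzyme of sterol synthesis, had its highest value in fat control array 3 (8.43) and its lowest in spleen control array 3 (5.15), the same 2 arrays that held the highest and lowest first Hspa1a values. Tesmin and Minar2 stayed between 4.60 and 6.00, near the detection limit, and Ehmt2 (4.64 to 6.35) and Cndp2 (4.88 to 6.72) also reached down to it.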

How the data were processed

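Per the labels' protocols, Qiagen Allprep RNA was amplified by the NuGen Ovation Pico WTA kit and biotin-labelled for Illumina bead arrays. The authors deposited a linear bead intensity, not normalized, and a detection p-value per probe and array, per the file headers, and a second table of normalized intensity, used as an alternative. GenomeStudio is named in the submitters' processing notes. Its version and normalization, and any build, were not given in the sources used here.

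Background was corrected on the deposited intensity with limma 3.58.1 (R 4.3.3, function nec, offset 16), which took its negative controls from the deposited detection p-value, followed by quantile normalization and log2. A probe was kept if its detection p-value was under 0.05 on 3 or more of the 12 arrays, which left 20367 of 45281. In GEO's platform annotation 34885 probes had 1 symbol, 18 several and 10378 none, and 0 changed when updated by Entrez number. No arrays were duplicates. The median SE between 2 groups was 0.468, so the number of arrays limits precision.

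One limma fit of the 4 group means took all 12 arrays (residual degrees of freedom 8, prior 3.97), with Benjamini-Hochberg adjustment over all kept probes in each of 8 comparisons, called below 0.05. Intervals are 95% intervals from the moderated fit. The slide test added slide to the model (residual degrees of freedom 6). The model was checked on simulated data. Correlations used SciPy 1.17.1 in Python 3.11.15.

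Slides come from the array names in the labels and match the replicate numbers. Deviations from the group means correlated within slides at −0.05 to 0.05 on slide 1, 0.02 to 0.16 on slide 2 and 0.08 to 0.35 on slide 3, and the correlation fitted as a random block was 0.06.

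Members and gene lists were chosen with earlier results of these data known. Each member's probe with the highest mean is given per array. From each other list the text could name up to 3 called genes, those that changed most, or, where none was called, the gene of smallest p, and Hsf1 in any case. Likeness was the 5 highest correlations with the members' mean among tested probes with a symbol outside the members. Alternatives were the background correction, offset, normalization, filter, probe choice, the authors' values, array weights, a slide block and leaving out each array.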

Additional observations from a re-analysis of the deposited data

How the results depend on the processing

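Of 119 results for single chaperone probes, 1 was called. That result kept its direction in all 21 of its alternative values and lost its call in 5 of them. Among the 2660 alternative values of all 119 results, other results gained a call in 7. The sign of an uncalled result changed in 107. In T-bet knockout mice the count of called chaperone probes between fat and spleen was 1, the third Hspa1a probe. It was 0 with no filter (that probe's adjusted p 0.061), 0 with a detection p below 0.01, under which that probe was not tested, 0 with 1 probe per gene, which leaves it out too, and 0 to 1 when leaving out each array. The size of its change was −1.18 without background correction and with the authors' normalized values, and −3.17 to −2.01 without each array. Over both genotypes the count was 0, and it was 1 without background correction, with offset 50, with no filter and with the authors' normalized values, each time the first Hspa8 probe (adjusted p 0.0221, 0.0489, 0.0184 and 0.0221). It was also 1 with array weights (the third Hspa1a probe, 0.0462), and 0 to 1 when leaving out each array, the calls being the third Hspa1a probe without spleen knockout array 1 (0.00655) and the first Hspa1b probe without spleen knockout array 3 (0.0341). The other 6 comparisons kept a count of 0. With the replicate block, slide as a fixed or random term, no chaperone call changed, and the third Hspa1a probe had an adjusted p of 0.0157 and 0.0141. Counts over all probes ranged from 471 to 1044 in T-bet knockout mice, 447 to 1221 in control mice and 1572 to 2888 over both, beside 923, 950 and 2560. The cause was not tested. Signal near background limits the probes of Dnaja1, Hspb1, the third Hspa1a and the third Hsp90aa1.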
